A study of Mus musculus with 12 samples.

Results

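Genes of the route that makes and senses the lymphatic growth factor Vegfc were compared between the outer layers of the great arteries and of the ventricles: the ligands Vegfc and Vegfd, the processing factors Ccbe1 and Adamts3, and the receptor Flt4. They were chosen by name, and all 5 were among the 17637 genes of the table, where Vegfd stands under its older symbol Figf. The samples came from wild type embryos of the outbred CD1 mouse stock at stage E16.5, and the study's title concerns cardiac lymphatics and a niche of second heart field origin. The artery group was the mesothelium with the layer under it, peeled with forceps from the base of the great arteries, and the ventricle group was the epicardium with the subepicardium. Each group had 6 libraries, each a pool of the tissue of 1 litter, so litters 1 to 6 gave 1 artery and 1 ventricle library each. The number of embryos per pool is not given in the sources used here, and the pools hold several cell types.

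Vegfc is secreted as a precursor with extensions at both ends. Furin-like convertases cut the C-terminal side inside the cell, and the protease ADAMTS3, brought to its substrate by the matrix protein CCBE1, removes the N-terminal extension outside it. The mature ligand then activates the receptor tyrosine kinase encoded by Flt4, which is found mainly on lymphatic endothelium and on some growing blood vessels, including the lymphatics that spread over the heart from its base. Vegfd is a close relative of Vegfc that binds the same receptor. Loss of Vegfc, Ccbe1 or Adamts3 in the mouse leaves embryos without normal lymphatic vessels, whereas mice without Vegfd are viable.

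The promoters of the ligand genes are shown because Vegfc and Vegfd, which feed the same receptor, differ widely in base composition. The Vegfc gene lies at chr8:54077606-54187096 (plus strand, GRCm38), and the RefSeq window below, of 250 bases before and 50 after the RefSeq start, spans chr8:54077282-54077581 on the same strand and ends before the GENCODE start. The Vegfd gene lies at chrX:164373378-164402650 (plus strand), and its window spans chrX:164373272-164373571. Capitals mark GGGCGG in either orientation in Vegfc and TATAAA in Vegfd. Both windows are written 5′ to 3′ from RefSeq on build GRCm38.p6.
Vegfc: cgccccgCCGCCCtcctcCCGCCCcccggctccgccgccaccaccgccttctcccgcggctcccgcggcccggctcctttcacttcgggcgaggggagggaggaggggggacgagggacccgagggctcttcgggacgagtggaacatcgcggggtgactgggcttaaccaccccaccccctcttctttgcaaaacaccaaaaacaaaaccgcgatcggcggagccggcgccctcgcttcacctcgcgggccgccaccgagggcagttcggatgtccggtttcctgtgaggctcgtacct
Vegfd: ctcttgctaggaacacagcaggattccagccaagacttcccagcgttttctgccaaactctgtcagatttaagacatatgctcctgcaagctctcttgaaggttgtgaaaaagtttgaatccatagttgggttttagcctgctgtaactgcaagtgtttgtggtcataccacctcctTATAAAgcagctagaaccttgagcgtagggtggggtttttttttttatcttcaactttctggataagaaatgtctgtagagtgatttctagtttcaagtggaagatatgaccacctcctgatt
GC content was 70.3% in the Vegfc window, which held 35 CpG steps, and 42.0% in the Vegfd window, which held 2, against medians of 52.7% and 7 over 32851 RefSeq promoters of 300 bases. TATAAA, on either strand, stood once in Vegfd, starting 73 bases before the RefSeq start, and in 13.6% of all these promoters. GGGCGG on either strand stood 2 times in Vegfc, and it was found in 35.7% of all of them. Adamts3 (77.3% GC, 1 GGGCGG) and Flt4 (70.3% GC, 3 GGGCGG) resembled Vegfc in base composition and held no TATAAA. These counts describe letters within the windows only.

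Depth was lowest in artery 1 (6.77 M reads) and artery 6 (7.97 M) and lay between 16.45 and 22.1 M in the other 10 libraries. Values are the deposited ones, reads on a CPM-like scale, and differences are artery minus ventricle on log2(value + 1), which understates the change of low genes. Artery 4 stood apart from the other artery libraries: its epicardial and mesothelial markers summed to 3372, against 1680 to 2201 in the other 5, and its smooth muscle markers to 1800, the lowest of the 6. Artery 6 stood apart in red blood cell markers, which summed to 18819 against 3219 to 6898 in the other 5 artery libraries and 1850 to 3901 in ventricle. The 10 epicardial and mesothelial markers (Wt1, Upk3b and others) summed to 1680 to 3372 in artery and 2774 to 5234 in ventricle. No tissue without these layers was among the libraries, so their presence is not a test of the labels.

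**Figure D1:**
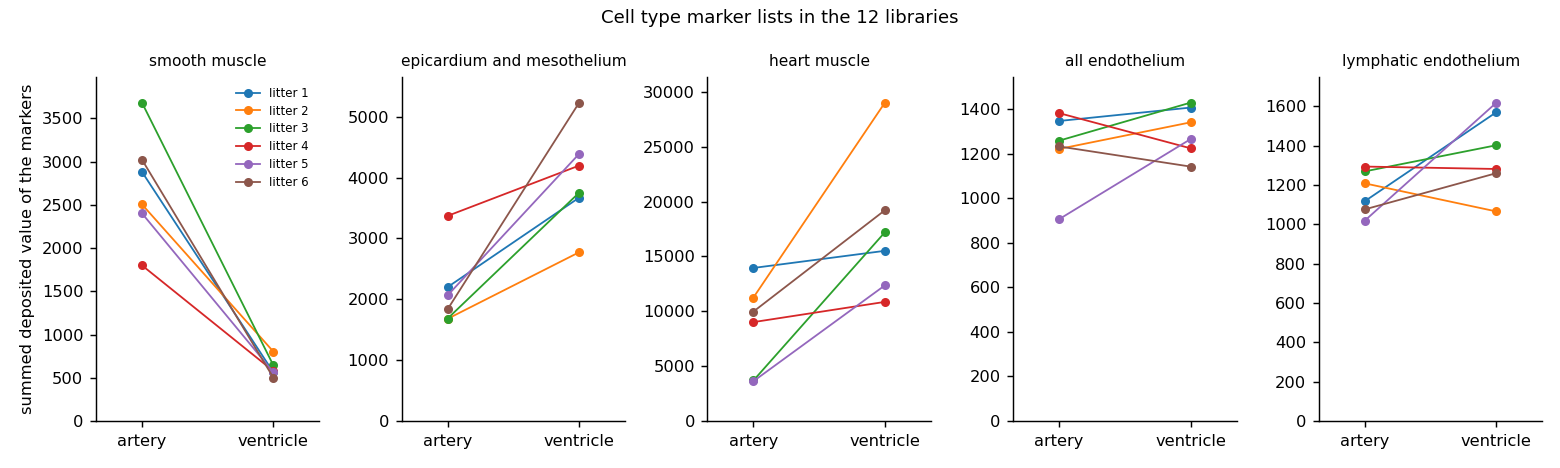
Each panel gives the summed normalised value of 1 list of cell type markers in the 6 artery and 6 ventricle libraries, with a line joining the libraries of a litter. Smooth muscle markers were higher in every artery library (1800 to 3684) than in any ventricle library (499 to 801), and artery 4 had the highest epicardial sum of the artery group.

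Between the ligands, Vegfc was lower in the artery layers, while Vegfd had a higher mean there without passing the test. In artery, the value of Vegfc ran from 16.9 over a median of 19.9 to 31.05, and in ventricle from 31.95 over 38.8 to 42.9. The groups did not overlap, although artery 4, the highest artery library, came close to ventricle 2, the lowest ventricle library. Means were 21.3 ± 5.34 and 38.1 ± 4.54 (SD, n = 6 each). The log2 difference was -0.83 ± 0.14 (SE; 95% interval -1.14 to -0.53), with adjusted p = 0.000739 in limma, and all 6 litters were lower in artery, with differences from -0.23 in litter 4 to -1.24 in litter 5. Across all genes tested, 24.1% passed adjusted p 0.05 in either direction, 11.8% as lower and 12.2% as higher in artery, and 4.25% were lower in artery with no overlap of the groups. Without litter 4 the difference was -0.96. Within lane 1 (2 artery and 2 ventricle libraries) it was -0.92 with adjusted p = 0.129, and within lane 2 (3 and 4 libraries) -0.71 with adjusted p = 0.0573, so the call did not hold in either lane alone. With lane as a covariate in limma, where artery 6 is alone in lane 4, it was -0.79 with adjusted p = 0.00353. The pools do not tell fewer cells of a type from less RNA per cell.

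Between the groups, epicardial and mesothelial markers differed in the same direction as Vegfc. All 10 were lower in artery, their summed level was lower in artery in 6 of 6 litters, and artery 4, the artery library highest in Vegfc, was also the highest in these markers. The same library had the highest artery sum of the lymphatic (1294), general endothelial (1383), macrophage (402) and Schwann cell (33.9) markers. Heart muscle markers were lower too (6 of 8 lower, 0 higher, summed level 3620 to 13947 in artery and 10854 to 29025 in ventricle). Of 6 Schwann cell markers 5 were lower and 1 higher in artery, with sums of 17.98 to 33.9 in artery and 39.7 to 50.3 in ventricle, lower in 6 of 6 litters. Within the groups, Vegfc and the epicardial and mesothelial sum did not rank the libraries alike. Ventricle 6 had the highest sum (5234) with Vegfc at 34.1, and ventricle 1 the highest Vegfc (42.9) with a sum of 3672. Artery 2 had the lowest artery sum (1680) but the highest artery Vegfc (22.6) after artery 4. The part of these lists in the Vegfc difference was not tested.

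In the artery libraries Vegfd stood between 19.7 and 35.8, with a median of 23.7, and in the ventricle libraries between 16.3 and 22.8, with a median of 19.7. Of the 6 artery libraries, 5 were above all ventricle libraries. Artery 1, the shallowest library, was below its own litter's ventricle library. Vegfd averaged 25.1 ± 5.48 and 19.5 ± 2.23, artery first (SD, 6 libraries a group). The log2 difference was 0.34 ± 0.13 (SE; 95% interval 0.061 to 0.61) with adjusted p = 0.0739 (limma), which missed the threshold. The call depended on the method and on artery 1, and the size of the difference on artery 3, the highest library. On whole reads, edgeR, DESeq2 and limma-voom gave adjusted p = 0.0441, 0.0332 and 0.0338. Adjusted p in limma was 0.0224 without artery 1 (difference 0.40), 0.141 without artery 3 (0.23) and 0.18 without litter 3 (0.25). Within lane 1 the difference was 0.52 (adjusted p = 0.456) and within lane 2 it was 0.25 (adjusted p = 0.176).

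**Figure D2:**
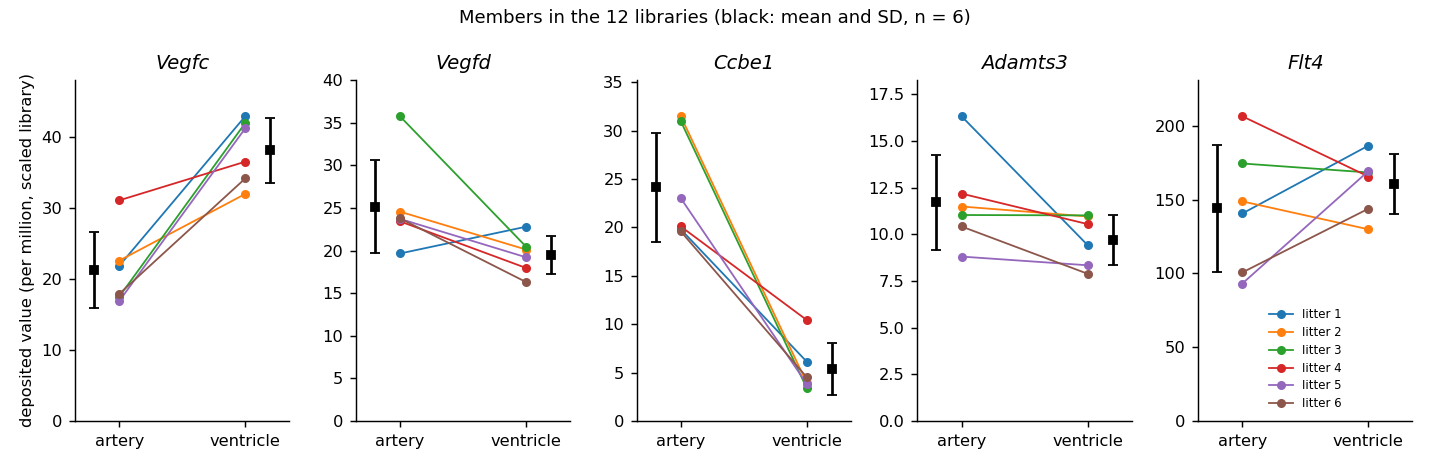
Normalised values of the 5 genes in each artery and ventricle library, with lines joining the libraries of a litter and black squares with bars for the mean and SD of 6 libraries. Vegfc was at most 31.05 in the artery libraries and Ccbe1 at least 19.6, with no overlap with ventricle in either gene, whereas Flt4 had a higher artery value in 3 litters and a lower one in 3.

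Among the processing factors, Ccbe1 had the largest difference of the 5 genes, and Adamts3 did not pass the test. Ccbe1 (chr18:66045302-66302741, minus strand), the secreted matrix protein that acts as a cofactor of ADAMTS3, ranged in artery from 19.6 over a median of 21.6 to 31.5. In ventricle it ranged from 3.38 over 4.22 to 10.4. Every artery library was above every ventricle library, and ventricle 4 stood above the other ventricle libraries, of which the next was ventricle 1 at 6.12. The means of 24.2 ± 5.62 and 5.36 ± 2.66 (SD, n = 6 each) differed 4.50-fold. On the log2 scale Ccbe1 was higher by 2.04 ± 0.22 (SE; 95% interval 1.56 to 2.52), with adjusted p = 1.86e-05 (limma). It was higher in 6 of 6 litters, by 0.89 in litter 4 to 2.87 in litter 3, and ranked 143 of 14779 tested genes from the highest difference. Among all tested genes 7.61% were higher in artery with no overlap. The call held within lane 1 (2.39, adjusted p = 0.0492), within lane 2 (1.94, adjusted p = 0.00664) and without litter 4 (2.27, adjusted p = 3.62e-06).

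Between 55 and 582 reads per library lay behind the Ccbe1 values. An antisense gene, Gm15958, overlaps Ccbe1, and whether reads were counted by strand is not stated in the sources used here. Gm15958 held at most 16 reads in a library, with mean values of 0.363 in artery and 0.154 in ventricle. Smooth muscle markers moved in the same direction as Ccbe1. Of 7 markers, 6 were higher in artery and 0 lower, by up to 5.78 for Myh11 and 5.08 for Lmod1. Artery 4 was the lowest artery library for these markers, while its Ccbe1 value of 20.1 was near those of artery 1 and artery 6 (19.8 and 19.6). In ventricle 4, the highest ventricle library for Ccbe1, the smooth muscle sum was 577, within the 499 to 801 of the group, but Myh11 and Lmod1 were highest there. Myh11 was 8.05 in ventricle 4 and 7.26 in ventricle 1, against 2.48 to 5.59 in the other 4 ventricle libraries. Lmod1 was 3.43 in ventricle 4 and 2.36 in ventricle 1, barely above ventricle 3 at 2.35. These 2 of the 7 markers were picked by smallest p, and the smooth muscle sum was highest in ventricle 2 (801). Fibroblast markers also summed highest in ventricle 4 (41624), with ventricle 1 next (35806). The fibroblast gene Pi16 was 13.5 in ventricle 4, against 5.30 to 7.50 in the other ventricle libraries. Dpt, another fibroblast gene, was not highest there, at 401 in ventricle 4 and 506 in ventricle 1. Both genes were picked by smallest p, and of 7 fibroblast markers 3 were higher in artery and 0 lower. The fibroblast sums overlapped between the groups, at 29940 to 48440 in artery and 29325 to 41624 in ventricle. The part of these markers in the Ccbe1 difference was not tested.

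Adamts3 (chr5:89677087-89883334, minus strand), the protease that removes the N-terminal extension of Vegfc, was in artery at 8.80 to 16.3 with a median of 11.3. In ventricle it was at 7.88 to 11.01 with a median of 9.98, on 79 to 212 reads per library over both groups. The groups overlapped, and artery 1, a library of 112 Adamts3 reads, was the highest. Means were 11.7 ± 2.53 and 9.69 ± 1.36 (SD, n = 6 each). The difference of 0.24 ± 0.14 (SE; 95% interval -0.064 to 0.54) had adjusted p = 0.249 (limma). All 6 litters had a higher value in artery, but by only 0.0024 in litter 3, 0.063 in litter 2 and 0.07 in litter 5. It was 0.48 within lane 1 (adjusted p = 0.452), 0.12 within lane 2 (adjusted p = 0.647) and 0.10 without artery 1 and artery 4.

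Flt4, the receptor, did not pass the test between the layers and spread widely in artery. Its gene lies at chr11:49609263-49652739 (plus strand). Values in artery ran from 93.1 over a median of 145 to 206, and in ventricle from 130 over 167 to 187. Artery 5 and artery 6 lay below all ventricle libraries and artery 4 above all of them. Means were 144 ± 43.2 and 161 ± 20.3 (SD, n = 6 each). The difference was -0.20 ± 0.18 (SE; 95% interval -0.58 to 0.18), with adjusted p = 0.45 (limma), so the interval spans 0.667-fold to 1.13-fold of the ventricle level. It was 0.0092 within lane 1 (adjusted p = 0.983) and -0.18 within lane 2 (adjusted p = 0.678). Single omissions moved it both ways, to -0.071 without litter 5, -0.088 without artery 5 and -0.11 without artery 6, and to -0.32 without artery 4, and with artery 1 and artery 4 left out it was -0.35 (adjusted p = 0.128).

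Of the 5 genes, then, 1 passed as higher and 1 as lower in artery, and the groups did not overlap in these same genes, beside 24.1% and 11.9% of all tested genes. Vegfc, Ccbe1 and Adamts3 had 1 direction in all 6 litters, as did 27.1% of all tested genes. With so few genes these counts say little about the group as a whole.

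Endothelial markers are given beside the receptor that endothelium carries. Of 10 general endothelial markers 0 were higher and 1, Esam, was lower in artery, and their sum was 907 to 1383 in artery and 1143 to 1430 in ventricle. Within a library, the ratio of Flt4 to the geometric mean of these markers was 0.981 to 1.84 in artery and 1.18 to 1.64 in ventricle, higher in artery in 3 litters and lower in 3. Among 12 lymphatic markers, 1 was higher in artery (Foxc2, a forkhead factor of lymphatic valves, 1.74 ± 0.14) and 4 were lower, including Fgl2 (-0.76 ± 0.13) and Prox1, the transcription factor of lymphatic identity (-0.56 ± 0.16, a call lost in 7 of 18 omissions of a litter or library). The median difference of these markers was -0.26, beside -0.04 for all tested genes. The ratio of Flt4 to Prox1 was 1.56 to 2.43 in artery and 1.116 to 1.89 in ventricle, higher in artery in 6 of 6 litters with overlapping ranges. As the pools hold several cell types, this ratio is not a level of receptor per lymphatic cell.

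The balance between the genes was also read within each library, where library scaling cancels. For 1 read of Vegfc, Ccbe1 had 0.647 to 1.77 reads in artery and 0.0807 to 0.286 in ventricle. The means of 1.2 ± 0.398 and 0.143 ± 0.0738 (SD, n = 6 each) differed 8.38-fold, and the log2 ratio by 3.12 ± 0.33 (SE). Litter 4 had the smallest contrast, with the lowest artery and the highest ventricle ratio. Adamts3 per Vegfc was 0.392 to 0.748 in artery and 0.202 to 0.343 in ventricle. Vegfd per Vegfc was 0.755 to 2.04 in artery and 0.466 to 0.63 in ventricle. Both ratios were higher in artery in all 6 litters, with no overlap. The ratio of ligand to receptor, Vegfc per Flt4, was narrow in ventricle at 0.22 to 0.249 and lower in artery at 0.100 to 0.181 in all 6 litters, again with no overlap. Vegfd per Flt4 was 0.113 to 0.255 in artery and 0.108 to 0.155 in ventricle, higher in artery in 6 of 6 litters, with overlap. The ratios without overlap given here all include Vegfc, which was itself lower in artery in all 6 litters without overlap. Adamts3, Vegfd and Flt4 did not pass alone, so these ratios are not results independent of the Vegfc difference. How often ratios of other gene pairs separate the groups was not computed. All are ratios of reads, not of molecules, and they are given as descriptions without a test.

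**Figure D3:**
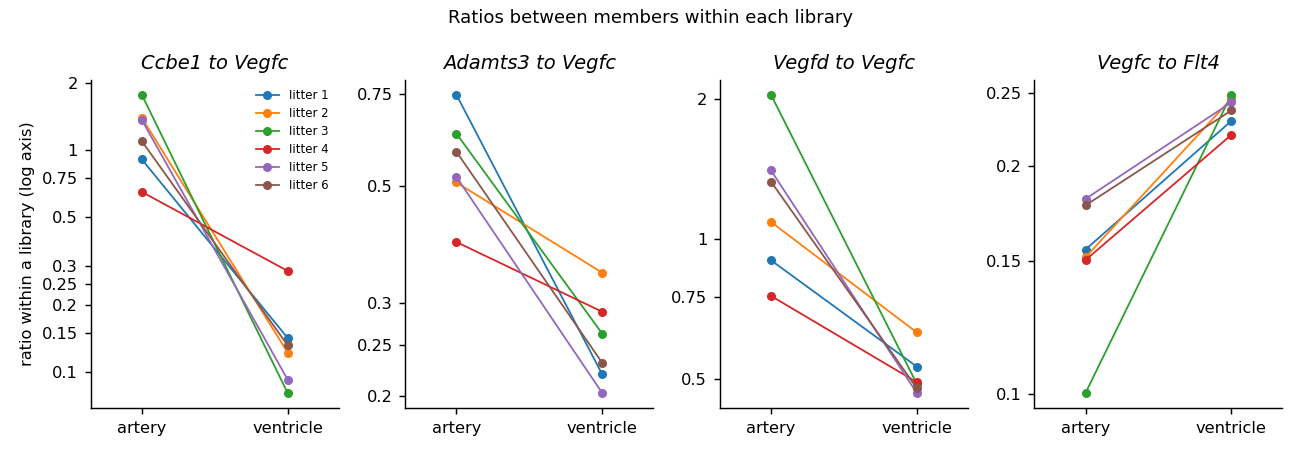
Ratios of normalised values between pairs of the genes within each library on log axes, with lines joining the libraries of a litter. Ccbe1, Adamts3 and Vegfd per Vegfc were higher, and Vegfc per Flt4 lower, in every artery library than in any ventricle library. Each ratio shown includes Vegfc, which was itself lower in artery without overlap.

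Set against the exon length of each gene (GENCODE M21, all annotated exons merged), the order of levels differed between the layers. In ventricle, the value per kb was 19.5 ± 2.47 for Flt4, 15.6 ± 1.86 for Vegfc, 8.09 ± 0.925 for Vegfd, 1.78 ± 0.25 for Adamts3 and 0.495 ± 0.245 for Ccbe1 (SD, n = 6). Flt4 and Vegfc overlapped there, though Flt4 was higher in 6 of 6 libraries, and each later step of the order was free of overlap. In artery, the value per kb was 17.5 ± 5.25 for Flt4, 10.4 ± 2.27 for Vegfd, 8.69 ± 2.18 for Vegfc, 2.23 ± 0.519 for Ccbe1 and 2.16 ± 0.467 for Adamts3. Vegfd exceeded Vegfc in only 4 of 6 artery libraries and Ccbe1 exceeded Adamts3 in 3 of 6, so neither pair could be ordered there. The merged exons of Ccbe1 span 10831 bases over 7 transcripts, longer than those of Adamts3 (5430 bases), and a shorter isoform in use would raise its value per kb.

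**Figure D4:**
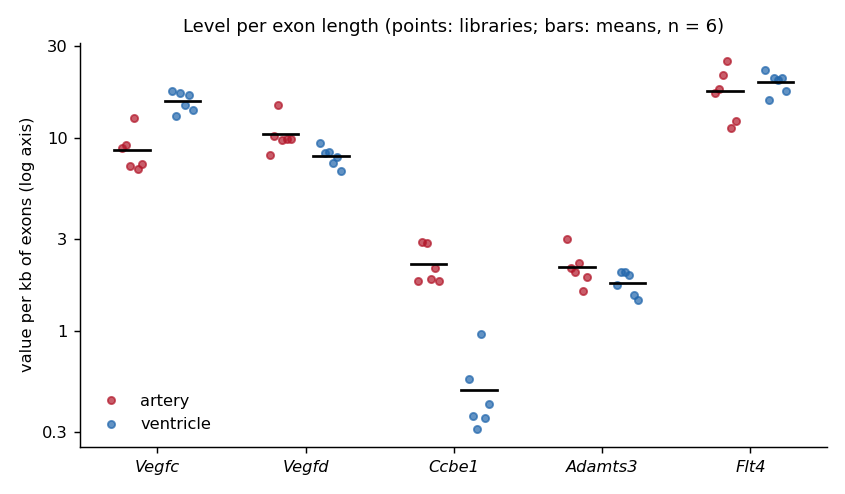
Normalised value per kb of merged exons on a log axis, with points for libraries and bars for the means of 6. Ccbe1 stood below Adamts3 in all ventricle libraries, at 0.495 and 1.78 on average, and at about the same level in artery, at 2.23 and 2.16.

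Other genes of the pathway were read from 4 lists of 41 genes. Of 40 tested, 7 were higher and 5 lower in artery (30% called, beside 24.1% of all genes), with a median difference of -0.039 beside -0.04 over all genes. The counts were 7 and 7 without artery 1 and artery 4. They fell to 4 higher without litter 2 or litter 3, to 2 lower without litter 3, to 3 lower without litter 5, litter 6, artery 5, ventricle 1 or ventricle 3, and to 3 higher and 0 lower within each lane.

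Among proteases that cut Vegfc or Vegfd or act nearby, 1 of 9 tested was higher and 0 lower. This was Adamts2, the procollagen N-proteinase and a paralog of Adamts3, at 614 ± 127 in artery and 241 ± 37.3 in ventricle (1.33 ± 0.14, adjusted p = 1.69e-05, limma). It was higher in 6 of 6 litters, with no overlap of the groups, at 485 to 819 in artery and 193 to 286 in ventricle. The convertase Furin, which cuts the C-terminal side of the Vegfc precursor, had a difference of 0.34 ± 0.13 with adjusted p = 0.0807, and passed with the litter as a block (adjusted p = 0.0474), where 3 of the 9 proteases were higher. Cathepsin D (Ctsd) was at 0.21 ± 0.12 (adjusted p = 0.247). The plasminogen gene Plg was under the minimum of a mean value of 1, with means of 0.547 and 0.305.

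Among 11 receptors and partners, 2 were higher and 1 lower in artery. Itga9, the integrin subunit that can bind Vegfc and Vegfd and is needed for lymphatic valves, was at 141 to 242 in artery and 62 to 96.8 in ventricle, without overlap (1.26 ± 0.15, adjusted p = 4.45e-05, limma). The semaphorin and Vegf co-receptor Nrp1 was higher by 0.39 ± 0.13 (adjusted p = 0.0377), a call lost in 11 of 18 omissions. Kdr, the other receptor of mature Vegfc, was lower by -0.58 ± 0.18 (adjusted p = 0.0268), lost in 8 of 18. The integrin subunit Itgb1 (0.26 ± 0.09, adjusted p = 0.063) and the co-receptor Nrp2 (-0.16 ± 0.15, adjusted p = 0.457) did not pass.

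Of 7 other ligands and secreted partners, 2 were higher and 3 lower. Angpt2, the ligand of the Tie receptor Tek that is needed for lymphatic remodelling, had the largest difference (2.62 ± 0.16, adjusted p = 9.98e-08, limma), at 89.8 to 199 in artery and 17.4 to 24 in ventricle. Svep1, the matrix protein polydom that is needed for lymphatic remodelling, was lower at 24.1 to 95.9 in artery against 101 to 154 in ventricle (-1.47 ± 0.26, adjusted p = 0.0012), with artery 4 again the highest artery library. Adrenomedullin (Adm), which acts on lymphatic endothelium, was higher by 0.82 ± 0.19 (adjusted p = 0.00661). Angpt1 was lower by -1.21 ± 0.31 (adjusted p = 0.0127), a call lost without litter 3, and Vegfb by -0.54 ± 0.18 (adjusted p = 0.0441), lost in 13 of 18 omissions. Vegfa (-0.23 ± 0.14, adjusted p = 0.268) and Pgf (-0.078 ± 0.15, adjusted p = 0.737) did not pass.

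Adaptors that carry the receptor's signal or take part in its endocytosis differed by small amounts. Of 13 tested, 2 were higher and 1 lower. Pik3r1, the regulatory subunit of phosphoinositide kinase, was higher by 0.38 ± 0.1 (adjusted p = 0.0141, limma; lost in 2 of 18 omissions), the adaptor Shc1 was higher by 0.27 ± 0.08 (adjusted p = 0.0325; lost in 10 of 18), and the endocytic adaptor Numb was lower by -0.36 ± 0.07 (adjusted p = 0.00255). The kinase Akt1 (0.025 ± 0.09) and the endocytic adaptor Dab2 (-0.15 ± 0.13) had adjusted p = 0.862 and 0.474.

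**Figure D5:**
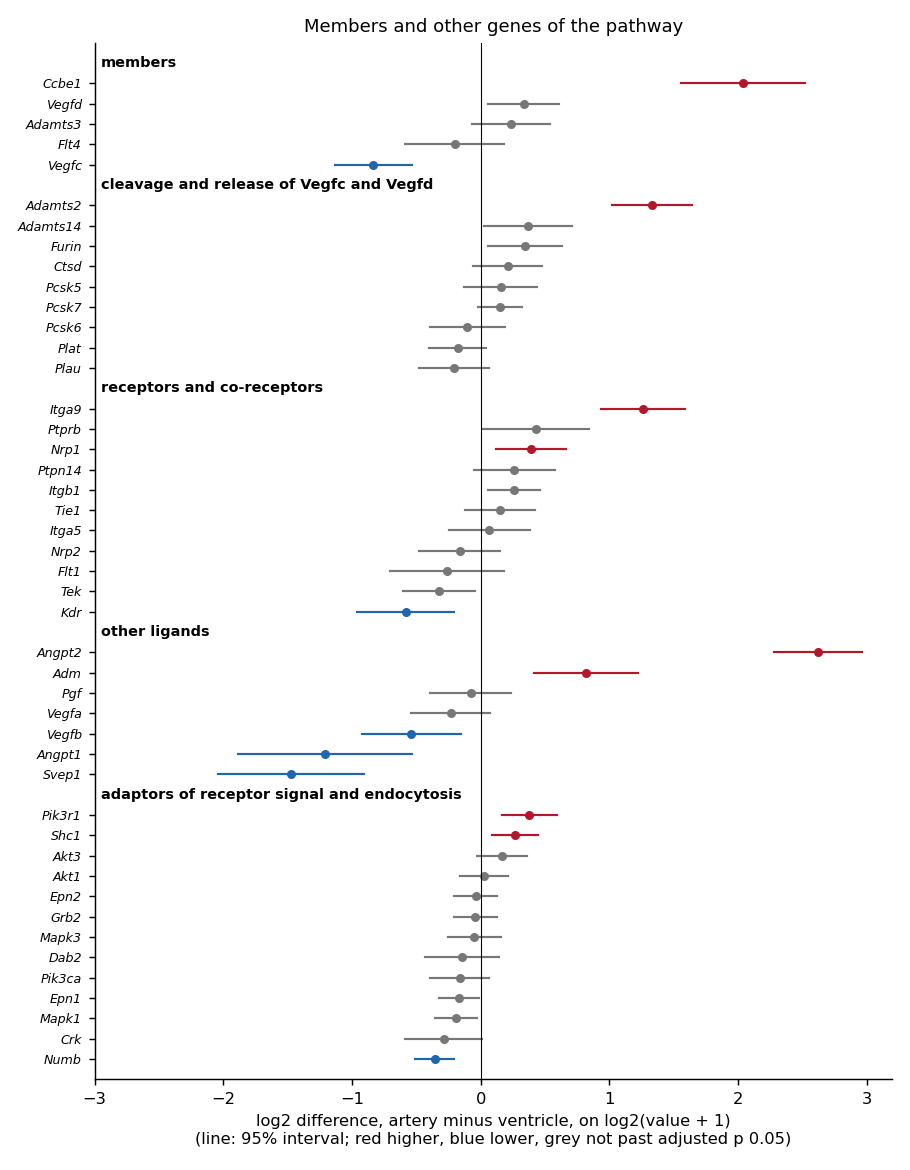
Log2 differences, artery minus ventricle, of the 5 genes and of 40 tested pathway genes, with lines for 95% intervals and colour for the call at adjusted p 0.05. Angpt2 (2.62) and Ccbe1 (2.04) lie farthest to the right and Svep1 (-1.47) farthest to the left.

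The genes whose libraries varied most like each member within the groups were found by Pearson correlation over the 12 libraries after each group's mean was subtracted, among the 11368 named genes whose mean value reached 5. These are the highest of many correlations, over libraries that share depth and dissection, and are descriptions. For Vegfc they were the calcium channel Itpr1 (r = 0.952), Tril (0.931) and Arhgap23 (0.927). For Vegfd they were Apold1 (0.942), Rgag4 (0.922) and the pericyte gene Rgs5 (0.912), which was higher in artery by 2.20. For Ccbe1 they were the collagen chain Col5a3 (0.877), Samd5 (0.873) and Osbpl10 (0.871), and all 3 were higher in artery, Col5a3 by 2.65 (adjusted p = 7.57e-06, limma). For Adamts3 they were the lamin Lmnb2 (0.962), Elac2 (0.934) and the purine enzyme Gart (0.934). For Flt4 they were Add1 (0.973), Tex261 (0.97) and the retinoid receptor Rxra (0.965), none of which passed the test between layers. Between members, the highest value was that of Vegfc and Flt4 (0.759), and Vegfc and Ccbe1 gave -0.131. A single library can weigh heavily on a Pearson correlation, and Vegfd was far higher in artery 3 than elsewhere. Spearman rank correlations of the genes named here with their members ran from 0.734 (Rgag4 with Vegfd) to 0.979 (Rxra with Flt4).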

How the data were processed

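PolyA RNA of 12 tissue pools was read as single reads of 50 bases from NEBNext Ultra libraries, per the labels' protocols. CASAVA 1.8.2, cutadapt 1.3, RSEM 1.2.3 and GRCm38 are named in the submitters' processing notes. No source used here names the tool behind the normalization or a gene filter. The signal deposited by the authors is (whole reads + 0.5) on a CPM-like scale, found from the values: 100% of 211644 values came out as whole reads within 0.02 reads. Columns summed to between 982252 and 1067983, which plain CPM would not. As these are not counts, which had been assumed first, limma was the test and count models were alternatives.

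The 14779 genes whose mean value reached 1 (2858 did not) were fitted together with limma 3.58.1 (R 4.3.3; trend and robust options) on log2(value + 1), a pseudocount of 1, two-sided, with Benjamini-Hochberg adjustment over all of them and a threshold of 0.05. The recovered reads went into edgeR 4.0.16, DESeq2 1.42.0 and limma-voom. Libraries with the same number are paired by design: per the labels' protocols, each litter gave 1 pool of either tissue. The mean correlation of deviations from the group means was 0.215 for libraries of 1 litter and -0.043 for libraries of different litters. The fit without the litter block was the planned one. Since each litter is its own pool, p-values rest on the spread over pools. Libraries of a group all differed beyond counting noise (chi-square per degree of freedom at least 10.1).

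The members, lists and tests were chosen with earlier results of these data known. Named were the members, up to 4 genes per direction of each pathway list with the smallest p, the 2 of highest mean that missed the threshold, up to 2 per direction of each marker list (some are not printed), and the 3 genes most like each member. Of 121 listed genes 120 matched 1 row (Adgre1 did not). The other marker lists were read as well: fibroblast (3 of 7 higher, 0 lower), macrophage (1 higher and 1 lower of 7), autonomic neuron (4 of 7 higher, 0 lower), Schwann cell (1 higher and 5 lower of 6) and red blood cell (2 of 6 higher, 0 lower; the calls of Alas2 and Hba-a1 were lost in 13 and 10 of 18 omissions). In simulated data with 200 genes changed among 14743 tested, the test recovered 30% of 1.5-fold, 98% of 2-fold and 100% of 4-fold changes between artery and ventricle, with 6 false calls among 170. The simulation gave every gene the same dispersion of 0.05 and changed no gene of low value. In the real data 24.1% of genes were called and some libraries stood apart, so these rates do not give the power of the reported test. Lane numbers come from the library descriptions and may belong to different flow cells. By these numbers, litter 1 had its artery library in lane 1 and its ventricle library in lane 2. Litter 6 had its artery library in lane 4 and its ventricle library in lane 1. Artery 1 and artery 6 are also the shallowest libraries, so lane and depth both differ within these litters. Promoters are from RefSeq (4 of 5 members), and gene coordinates and lengths from GENCODE M21 on GRCm38. All 12 value columns were used.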

Additional observations from a re-analysis of the deposited data

Results flagged for a closer look

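In 32 groups of 6 libraries, values of the 5 genes and of the 11 ratios computed between genes, 5 had a library that lay far from the rest, where chance alone would give about 1 in 20. The ratios share genes, so the groups are not independent and the count is no test of an excess. Vegfd in artery 3 was 35.8, with the gap to the next library taking 0.695 of the group's range. In ventricle 4 the ratio of Ccbe1 to Vegfc was 0.286 and that of Ccbe1 to Vegfd was 0.580, both the highest of the ventricle group. In ventricle 2 the ratio of Vegfd to Flt4 was 0.155. In artery 4 the ratio of Vegfc to Vegfa was 0.344, against 0.156 to 0.188 in the other artery libraries, and that library also had the highest sum of its group for the epicardial and mesothelial, lymphatic, general endothelial, macrophage and Schwann cell markers. The part of these markers was not tested.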

How the results depend on the processing

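Each of the 5 differences was recomputed under 35 alternatives. Ccbe1 kept its direction and call in all 35 (up to 2.39; lowest with a pseudocount of 5), and Adamts3 stayed above 0 and short of the threshold in all 35 (0.10 to 0.48). Vegfc was lower in all 35 (-0.99 to -0.71, adjusted p up to 0.129) and lost its call within lane 1 (-0.92) and within lane 2 (-0.71), which hold fewer libraries. Vegfd was past the threshold by edgeR (0.39), DESeq2 (0.38), limma-voom (0.40), without artery 1 and 4 (0.44) and without artery 1 and 6 (0.43), and ran from 0.23 to 0.45 over 18 omissions of a litter or library, passing without litter 1 and without artery 1. Flt4 did not pass in any and changed sign within lane 1 (0.0092). With the litter as a block, Vegfc was at adjusted p = 0.00352 and Ccbe1 at 0.000547, and beyond Furin and the protease count given above the block changed no call of a member or named gene. The count of genes past the threshold, 3556, was 3619 with the litter block, 321 within lane 1, 1334 within lane 2, and 2066 (without litter 3) to 4284 (without artery 1) over the omissions. Among 41 other named genes, 1265 of 1434 recomputed values kept direction and call and 149 values of 26 genes lost the call (26 genes within lane 1, 18 within lane 2, up to 12 in an omission). Furin and Itgb1 passed the threshold in 12 values, and S100b had no value with a minimum mean of 5. Sign changes were seen for Akt1 within lane 2 (-0.064), without artery 1 and 4 (-0.036) or 1 and 6 (-0.045) and over the omissions (-0.034 to 0.063), for Dab2 within lane 2 (0.019) and without artery 1 and 6 (0.029), and for Pgf without artery 1 and 4 (0.015). The causes were not tested. Ccbe1 rested on 55 to 582 reads per library and Adamts3 on 79 to 212, against 768 to 3468 for Flt4. The part of depth in these results was not tested.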
